A study of Mus musculus with 6 samples.

Results

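Gad1, Gad2, Slc32a1 and Abat, genes that make, package and break down the transmitter GABA, were described in embryonic mouse palate. They were selected on a list drawn up with earlier results of the same comparison known, so the genotype differences below are a description and support nothing by themselves. Every probe set with 1 of the 4 genes as its single annotated symbol was taken, which gave 10 of 45037 probe sets, and 4 of 18193 named genes. The samples were palates microdissected at E13.5 from embryos of a C57BL6/129 mixed background and of mixed gender, each measured on an Affymetrix Mouse430_2 array. Arrays 1 to 3 of the first group were Fz1-/-; Fz2+/+ (called Fz1-null here) and arrays 1 to 3 of the second were Fz1-/-; Fz2-/- (called double-null), so all 6 lacked Frizzled 1 by genotype and there was no wild-type palate. No embryo, litter or pool is named for any sample, so errors reflect the variation among these preparations, part of which may be technical. Which part of either Frizzled gene was removed is not stated in the labels.

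GABA is made from glutamate by the 2 glutamate decarboxylases encoded by Gad1 and Gad2. The vesicular transporter encoded by Slc32a1 loads it, and also glycine, into synaptic vesicles. The transaminase encoded by Abat breaks it down in mitochondria. Outside the adult brain the pathway is known for a role in the palate: mice without Gad1, and mice without Slc32a1, are born with cleft palate, while mice without Gad2 are not known for it. GABA acts on chloride channels assembled from GABA-A receptor subunits and on the G-protein-coupled GABA-B receptor.

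RefSeq (GRCm38.p6) placed Gad1, Gad2 and Slc32a1 all on chromosome 2, and its table used here held a start site for 3 of the 4 genes. The 250 bases before each start site are shown. Both Gad1 probe sets, 1 of 2 for Gad2 and 1 of 4 for Slc32a1 were highest on double-null array 3, as described below. So was 1 of the 2 probe sets of Abat, which had no start site here. Capitals mark the letters CTTTG or their reverse complement CAAAG, the core bound by TCF/LEF factors, which act at the end of the Wnt/beta-catenin pathway.
Gad1, chr2:70561879-70562128, + strand: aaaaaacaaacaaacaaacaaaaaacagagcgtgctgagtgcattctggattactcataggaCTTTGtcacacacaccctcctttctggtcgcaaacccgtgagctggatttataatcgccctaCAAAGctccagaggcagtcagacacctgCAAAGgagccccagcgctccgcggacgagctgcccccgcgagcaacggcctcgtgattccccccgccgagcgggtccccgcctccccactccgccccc
Gad2, chr2:22622077-22622326, + strand: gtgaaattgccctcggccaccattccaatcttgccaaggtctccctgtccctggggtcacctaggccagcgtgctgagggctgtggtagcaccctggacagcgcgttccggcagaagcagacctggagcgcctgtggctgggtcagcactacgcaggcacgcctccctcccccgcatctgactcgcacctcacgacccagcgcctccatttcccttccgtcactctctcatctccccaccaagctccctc
Slc32a1, chr2:158610508-158610757, + strand: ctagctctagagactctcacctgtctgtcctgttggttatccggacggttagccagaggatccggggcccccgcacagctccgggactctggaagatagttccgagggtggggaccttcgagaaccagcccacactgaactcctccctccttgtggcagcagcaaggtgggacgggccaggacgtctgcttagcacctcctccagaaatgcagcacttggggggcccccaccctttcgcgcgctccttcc
The core occurred 3 times before Gad1, beginning 188, 126 and 98 bases upstream of the start site, and in neither of the other windows. Of 32851 windows of the same length in the table, 48.6% held it at least once and 3.94% held it 3 times or more. TAATTA, a core bound by homeodomain proteins such as the Dlx factors, was in none of the 3 windows and in 4.84% of all windows. The GC box GGGCGG or its reverse complement CCGCCC, searched as the others on both strands, occurred once before Gad1, 8 bases upstream, and in 32.7% of all windows. The windows had a GC content of 58.0% for Gad1, 64.0% for Gad2 and 62.4% for Slc32a1, against a median of 52.4%. These matches describe letters only.

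The genotype label was checked first. The brightest probe set of Fzd2, the gene of Frizzled 2, averaged 11.57 on the 3 Fz1-null arrays (SD 0.10) and 10.31 on the 3 double-null arrays (SD 0.19), on the deposited log2 scale. That double-null reading is still far above the array medians of 7.22 to 7.27. The 3 Fzd2 probe sets lay lower on every double-null array than on any Fz1-null array. Fzd1, the gene of Frizzled 1, which all 6 samples lack by genotype, read 7.36 to 7.51 by its brighter probe set, and 53.3% of probe sets had a lower mean, so with no palate that has Frizzled 1 its readings do not check the Fz1-null label. Double-null array 3 stood apart in cell type markers. Against Fz1-null array 3, its 10 skeletal muscle markers were on average 0.69 higher on the log2 scale (all 10 higher), and its 10 epithelial markers 0.54 lower (all 10 lower). The muscle list mean ran from 8.74 to 8.83 on the Fz1-null and from 8.57 to 9.42 on the double-null arrays, and the epithelial mean from 9.13 to 9.41 and from 8.86 to 9.28. In the pairs numbered 1 and 2 the muscle means differed by -0.13 and -0.25 and the epithelial means by -0.01 and -0.13. Palate mesenchyme markers, among them Osr2, Pax9, Shox2 and Msx1, had list means of 9.86 to 9.997 on the Fz1-null arrays and 9.74 to 9.90 on the double-null arrays. Their pair means were 0.04, -0.08 and -0.26, with 1 of 10 genes higher in pair 3. By mean over all arrays 2 were higher and 8 lower, but 3 and 7 without double-null array 3. A gene's printed mean difference is also given without double-null array 3 where that array moved it by over 1.5 times or turned its sign. This was done for the 4 genes, and for other genes if either difference was at least 0.1 in size. Counts over the GABA pathway and neural lists are given both ways where they changed. Values without double-null array 3 still hold Fz1-null array 3, so they are not differences within pairs.

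Gad1, the decarboxylase that supplies most GABA of the brain, lay higher on every double-null array than on any Fz1-null array, by each of its 2 probe sets. Probe set 1416561_at read 4.31, 4.49 and 4.44 on Fz1-null arrays 1, 2 and 3, and 5.09, 4.69 and 5.87 on the double-null arrays of the same numbers. The Fz1-null arrays sat close together, and the double-null arrays were spread out, with array 3 highest. The Fz1-null mean was 4.42 ± 0.09 and the double-null mean 5.22 ± 0.60 (SD over 3 arrays each). On the log2 scale they differed by 0.80 (SE 0.26), or 1.74-fold. Within the pairs the difference was 0.78, 0.20 and 1.42. Without double-null array 3 it was 0.48.

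The brighter Gad1 probe set, 1416562_at, showed the same order with a far smaller range. It read 6.56, 6.54 and 6.54 on the Fz1-null arrays and 6.61, 6.61 and 6.86 on the double-null arrays. The Fz1-null values were nearly identical, and again double-null array 3 was the highest. The difference was 0.15 (SE 0.09), or 1.11-fold, and 0.06 without double-null array 3. The 2 probe sets followed each other over the 6 arrays with a Pearson correlation of 0.95, and of 0.81 over the 5 arrays without double-null array 3. These correlations describe arrays that share genotype and number and carry no p.

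The dimmer Gad1 probe set differed more than most of the array. Of all 45037 probe sets, 9 had a larger upward difference, and 99.3% had a smaller SD among the double-null arrays. Its level was low: 11.7% of probe sets had a lower mean over the 6 arrays, against 38.1% for the brighter one. The 10th percentile of the arrays ran from 4.58 to 4.67. All its Fz1-null readings lay below that range and all its double-null readings above. Probes differ in how strongly they bind, so this places the readings on the scale and does not compare amounts of RNA. On a scale of log2(value + 32), which damps dim readings, the difference of the dimmer probe set was 0.40.

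**Figure D1:**
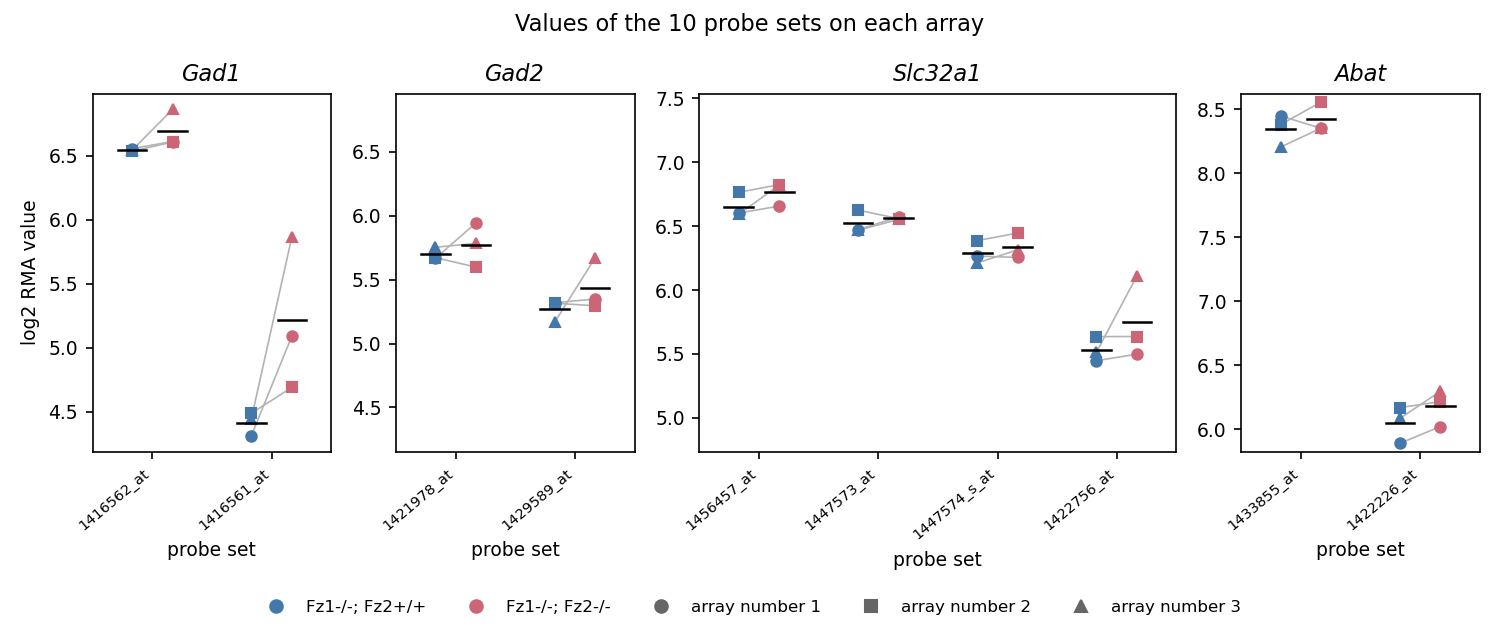
Deposited log2 RMA values (y axis) of the 10 probe sets (x axis, 1 panel per gene, each panel spanning the same log2 range) on the 3 Fz1-null arrays (blue) and the 3 double-null arrays (red). Symbols mark the array number, grey lines join arrays of 1 number and black bars are group means. For Gad1 probe set 1416561_at the double-null arrays lie between 4.69 and 5.87, all above the Fz1-null arrays.

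Gad2, the decarboxylase of nerve terminals, had 2 probe sets that did not follow each other (Pearson correlation 0.23 over the 6 arrays). The brighter, 1421978_at, read 5.67, 5.67 and 5.75 on the Fz1-null arrays and 5.94, 5.60 and 5.78 on the double-null arrays. Here double-null array 1 was highest and double-null array 2 lowest of all 6, so the groups overlapped. The difference was 0.08 (SE 0.10), and -0.0066 without double-null array 1.

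The other Gad2 probe set, 1429589_at, read 5.32, 5.31 and 5.17 on the Fz1-null arrays and 5.35, 5.30 and 5.67 on the double-null arrays. All but double-null array 3 lay close together. The difference was 0.17 (SE 0.11), and 0.05 without that array. The pair differences were 0.03, -0.02 and 0.50.

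Slc32a1, the vesicular transporter, had 4 probe sets, and 1 of them departed on the same array as Gad1. That probe set, 1422756_at, read 5.45, 5.64 and 5.52 on the Fz1-null arrays and 5.50, 5.64 and 6.11 on the double-null arrays. Its values were alike in both groups except on double-null array 3. The difference was 0.22 (SE 0.16), and 0.03 without that array. The brightest Slc32a1 probe set, 1456457_at, read 6.60, 6.76 and 6.59 and then 6.66, 6.82 and 6.82, a difference of 0.11 (SE 0.09). Its groups overlapped, with Fz1-null array 2 above double-null array 1.

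The remaining Slc32a1 probe sets differed less, 1447573_at by 0.04 (SE 0.08) and 1447574_s_at by 0.05 (SE 0.09). With 1 array at a time left out, they ran from 0.01 (without Fz1-null array 3) to 0.09 (without Fz1-null array 2) and from -0.0033 (without double-null array 2) to 0.0997 (without Fz1-null array 2). On all 4 Slc32a1 probe sets, Fz1-null array 2 read highest of its group. Correlations between the 4 Slc32a1 probe sets ran from 0.28 to 0.84 over the 6 arrays. The lowest was between 1447574_s_at and 1422756_at, which correlated at 0.87 without double-null array 3.

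Abat, the enzyme that breaks GABA down, had 2 probe sets that did not follow each other. Probe set 1433855_at read 8.45, 8.38 and 8.21 on the Fz1-null arrays and 8.35, 8.56 and 8.35 on the double-null arrays. The groups overlapped and double-null array 2 was highest. The mean difference was 0.08 (SE 0.10). Pair by pair it was -0.10, 0.18 and 0.15, and the mean was 0.0065 without Fz1-null array 3 and 0.0080 without double-null array 2. The dimmer probe set, 1422226_at, read 5.89, 6.17 and 6.09 and then 6.02, 6.22 and 6.30, higher in all 3 pairs by 0.13, 0.05 and 0.21. Its difference was 0.13 (SE 0.11), and 0.07 without double-null array 3. Leaving out the first array of either group moved it as well, to 0.21 for the double-null and to 0.05 for the Fz1-null array. The 2 Abat probe sets correlated at 0.07 over the 6 arrays.

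**Figure D2:**
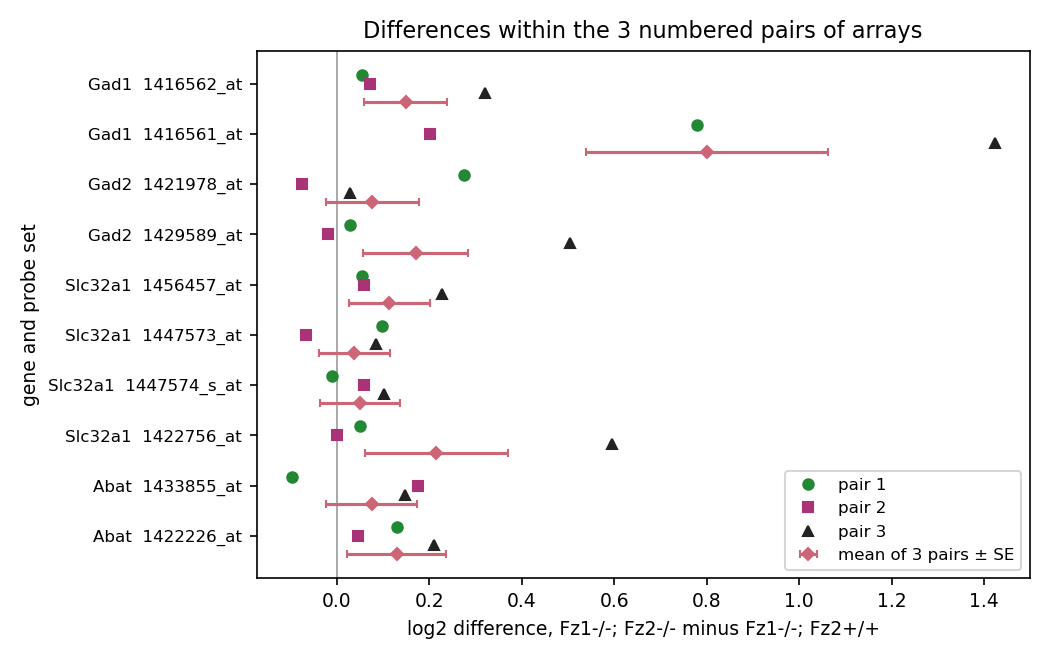
Log2 differences, double-null minus Fz1-null (x axis), for each of the 10 probe sets (y axis) within the pairs of arrays numbered 1, 2 and 3. Diamonds are the mean difference with its moderated SE. That SE is from the fit by genotype alone, so it does not measure the spread of the pair differences. In pair 3 all 10 lie above 0 and Gad1 probe set 1416561_at reaches 1.42.

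Over the 10 probe sets, all 10 mean differences were upward, with a median of 0.12, of 0.07 without double-null array 3 and of 0.05 from pairs 1 and 2 alone. Over all 18193 genes, by the brightest probe set of each, 45.7% were higher and the median was -0.01. By pair, 8, 7 and 10 of the 10 probe sets were higher in the double-null array. The probe sets of 1 gene share transcripts and are not independent. In the limma fit over all probe sets, 0 of the 10 passed an adjusted p of 0.05, as did 0 of all 45037 (0%). At an unadjusted p under 0.05 there was 1 of the 10, Gad1 1416561_at, beside 0.691% of all probe sets that were so and higher. With the replicate number as a block, 0 of the 10 passed and 3 of 45037 did (0.00666%), the 3 of Fzd2. Groups that did not overlap, with double-null higher, were found for the 2 Gad1 probe sets, beside 2.79% of all. The list was drawn up with this contrast known, so nothing is read from these shares.

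The 4 probe sets that were over 0.3 higher in pair 3, chosen after their values were seen, came from Gad1 (both), Gad2 (1429589_at) and Slc32a1 (1422756_at). All 4 were highest on double-null array 3. Their 6 pairwise correlations over the 6 arrays ran from 0.85 to 0.95, and from 0.04 to 0.81 over the 5 arrays without it. Because the choice was by pair 3, the range over the 6 arrays follows in part from the choice. The other 6 probe sets differed by 0.03 to 0.23 in pair 3. Among these, Abat 1422226_at was also highest on double-null array 3, so 5 of the 10 probe sets were.

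Markers of nerve cells moved with the genes in pair 3 and against Gad1 in pair 1. All 15 neuron markers, such as the tubulin Tubb3 and the microtubule protein Dcx, were higher in double-null array 3 than in Fz1-null array 3, by 0.28 on average. In pair 1, where Gad1 1416561_at was 0.78 higher, 1 of the 15 was higher and the mean was -0.27. In pair 2 the mean was -0.07. By mean over all arrays 7 of the 15 were higher and 8 lower, with a median of -0.03. Without double-null array 3, 2 were higher and 13 lower, with a median of -0.12. Dcx differed by 0.29 (SE 0.38), and by -0.06 without that array. Within the pairs Dcx was higher each time, by 0.03, 0.26 and 0.58, and by 0.14 from pairs 1 and 2 alone. With the replicate block the SE of Dcx was 0.10. Over the arrays the neuron list mean ran from 9.72 to 10.27 in Fz1-null and from 9.65 to 10.20 in double-null palates, so it overlapped between groups, and its dimmest gene, Syt4, had a mean of 7.97. The part of nerve cell content in the values of Gad1, Gad2 and Slc32a1 was not tested, and in these bulk samples more cells of a type and more RNA per cell cannot be told apart.

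Transmitter markers of other neurons were read on the same arrays. Slc6a5, the glycine transporter of glycinergic neurons, read 6.36, 6.33 and 6.31 on the Fz1-null arrays and 6.36, 6.45 and 7.02 on the double-null arrays. Slc17a6, a vesicular glutamate transporter, read 8.76, 7.96 and 8.15 and then 8.38, 7.89 and 8.66. Double-null array 3 was highest for Slc6a5, and for Slc17a6 it was within the Fz1-null range. Slc6a5 differed by 0.28 (SE 0.16), and by 0.08 without that array. Slc17a6 differed by 0.02 (SE 0.25), and by -0.15 without it. Slc17a7, another vesicular glutamate transporter, and Slc18a3, the vesicular acetylcholine transporter, differed by 0.16 (SE 0.07) and 0.20 (SE 0.11), the latter by 0.09 without double-null array 3. The 6 genes of this list had pair means of -0.07, -0.02 and 0.33. By mean 4 of them were higher and 2 lower, but 3 and 3 without double-null array 3.

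The transcription factors and peptides of GABAergic neurons were split. Of 9 measured genes 4 were higher and 5 lower, with a median of -0.03 and pair means of 0.14, -0.10 and -0.02. Without double-null array 3, 6 were higher and 3 lower, with a median of 0.12. From pairs 1 and 2 alone the median was -0.03. Dlx1 and Dlx2, homeobox genes of forebrain interneurons that the facial mesenchyme also expresses, were measured in it. Dlx2 differed by 0.13 (SE 0.10), and Dlx5, of the same family, by -0.15 (SE 0.16), or -0.01 without double-null array 3. Sst, the peptide somatostatin, differed by 0.36 (SE 0.16), or 0.22 without it. None of the 9 passed the limma test over all probe sets.

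Neural progenitor markers were higher in each pair. Their pair means were 0.24, 0.21 and 0.27, with 9 of 10 genes higher by mean (8 without double-null array 3) and a median of 0.18, and list means of 8.28 to 8.33 in Fz1-null and 8.49 to 8.60 in double-null palates. Zic1, a zinc finger gene of the dorsal neural tube, read 9.79, 9.42 and 9.50 and then 10.18, 10.08 and 10.70. As for Gad1, its groups did not overlap and double-null array 3 was highest. Sox1, an early neural gene, and Hes5, a Notch target, differed by 0.34 (SE 0.09) and 0.25 (SE 0.10). No gene of this list passed the adjusted test, with or without the block, and genes of this list are known to be high in this comparison, so it is no separate evidence. Markers of sensory and autonomic neurons were lower in 5 of 5 genes, with pair means of -0.35, -0.06 and -0.05, and Prph, a filament protein of peripheral neurons, at -0.30 (SE 0.22). By pair, 0, 2 and 3 of the 5 were higher. Their median was -0.13 over all arrays and -0.20 from pairs 1 and 2 alone. Without double-null array 3, 3 were lower and 2 higher. That array moved Neurog1 from 0.06 without it to -0.19 (SE 0.24), and Pou4f1 from -0.25 to -0.13 (SE 0.26). Forebrain floor and pituitary markers had pair means of 0.30, -0.13 and 0.04, glia markers of -0.14, 0.09 and 0.09, and endothelial markers of 0.01, 0.22 and 0.04. Of the forebrain floor and pituitary genes 5 were higher and 4 lower, but 8 and 1 without double-null array 3. Of the glia genes 3 were higher and 2 lower, but 2 and 3 without it.

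**Figure D3:**
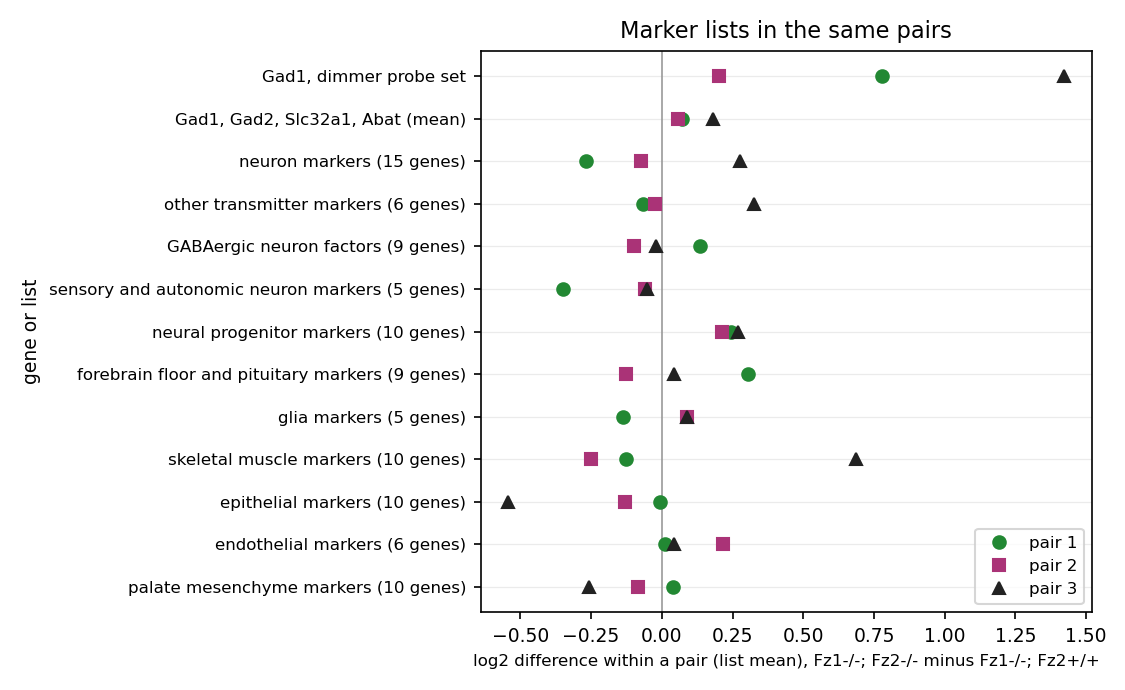
Log2 differences, double-null minus Fz1-null (x axis), within the 3 numbered pairs for Gad1 probe set 1416561_at, for the mean of the brightest probe sets of the 4 genes, and for the means of 11 marker lists (y axis). In pair 3 neuron and skeletal muscle markers lie at 0.28 and 0.69 and epithelial markers at -0.54, while neural progenitor markers lie between 0.21 and 0.27 in all 3 pairs.

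The rest of the GABA pathway was split between the directions. Of 50 genes in 6 lists, 40 were measured by a single-symbol probe set, 17 of them higher and 23 lower in double-null palates by the brightest probe set. Their median difference was -0.01, beside -0.01 for all genes. Without double-null array 3 the counts were the same and the median was -0.03. With limma over all probe sets, 0 of their 90 probe sets passed an adjusted p of 0.05, and 0 passed with the replicate block. In the fit by genotype alone 0 had an unadjusted p under 0.05. With the block it was under 0.05 for Slc12a5 1425337_at and Slc6a13 1424338_at, both higher. The same held for Slc12a2 1417622_at and Gabra4 1433707_at, both lower. The share of all probe sets under 0.05 in the block fit is not given here, so nothing is read from these. Groups without overlap and double-null higher were found for 3 of the 90, 1 each of Trak1, Trak2 and Gabrd, named here after their values were seen. That is 3.33%, close to the 2.79% of all probe sets. Lower without overlap were 0 of the 90, beside 1.73% of all.

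Among the GABA-A receptor subunits, which form the chloride channel that GABA opens, 10 of 15 were higher and 5 lower, with a median of 0.01, but 7 and 8 without double-null array 3. Of the subunits with the highest readings, Gabrb2 differed by 0.01 (SE 0.11), Gabrb1 by 0.06 (SE 0.10) and Gabre and Gabrp by under 0.01 (SE 0.13 and 0.10). Gabra4 differed most, by -0.29 (SE 0.18) by its brighter probe set, 1433707_at, and by -0.13 without double-null array 3. Its pairs gave 0.11, -0.53 and -0.46. The other Gabra4 probe set, 1429330_at, differed by 0.03 (SE 0.12), with 0.17, -0.11 and 0.03 within the pairs. With pair 1 left out and the number as a block, Gabra4 1433707_at was -0.50 (limma adjusted p = 0.0324, 2 pairs), and so was Gad1 1416561_at past the threshold (0.81, limma adjusted p = 0.0153), among 93 calls in that fit against 3 with all pairs. Gabrr2 differed by 0.10 (SE 0.10) and Gabrg3 by 0.07 (SE 0.08).

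Of the GABA-B receptor genes, all 3 measured were lower by the brightest probe set, with a median of -0.05. Gabbr1, the subunit that binds GABA, differed by -0.09 (SE 0.12), and by -0.19 without double-null array 3. Its pairs gave -0.35, -0.05 and 0.12. Its auxiliary proteins Kctd8 and Kctd16 differed by -0.01 (SE 0.07) and -0.05 (SE 0.12), and Kctd16 by -0.14 without that array. Other probe sets were split. Gabbr1 1422051_a_at differed by -0.14, 1437188_at by -0.09 (-0.17 without that array) and 1425595_at by 0.03. Kctd8 1455923_at differed by 0.07 (SE 0.13).

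The plasma membrane GABA transporters held the largest upward difference of the 40 genes. Slc6a13, a transporter found mainly outside neurons, in meninges among other tissues, had means of 6.70 ± 0.06 and 6.95 ± 0.29 (SD over 3 arrays each) and differed by 0.26 on the log2 scale (SE 0.14), and by 0.09 without double-null array 3. Its pairs gave 0.09, 0.17 and 0.51. It lay higher in all 3 pairs and most so in pair 3. Slc6a12, which also carries betaine, differed by 0.10 (SE 0.09), or 0.06 without that array, and Slc6a11 by -0.03 (SE 0.10).

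Enzymes and carriers around GABA and glutamate were nearly level, 2 of 8 higher and 6 lower with a median of -0.03, and 5 higher and 3 lower with a median of 0.04 without double-null array 3. Aldh5a1, which takes over the product of Abat, differed by 0.03 (SE 0.07), and Aldh9a1, an enzyme of GABA formation from putrescine, by -0.05 (SE 0.10). Got2 and Got1, the aspartate aminotransferases, differed by -0.06 (SE 0.08) and -0.05 (SE 0.08), and Glud1, Akr7a5 and Slc38a1 by -0.04, -0.02 and -0.0035. Anchoring and trafficking genes were lower in 7 of 9 (6 without that array), with a median of -0.04: the synaptic adhesion protein Nlgn2 differed by -0.05 (SE 0.15), Gabarap by -0.0054 (SE 0.07), Gabarapl1 by -0.01, Gabarapl2 by -0.04, Trak1 by -0.12 (SE 0.08), Plcl1 by -0.07 (SE 0.10) and Nsf by -0.12 (SE 0.16). Without double-null array 3, Nlgn2 differed by -0.16 and Nsf by -0.25. Other probe sets of these genes did not all follow. Nlgn2 1460013_at differed by 0.07 (SE 0.11) and Gabarapl2 1441376_at by 0.16 (SE 0.12). Nsf 1422455_s_at differed by 0.02, 1430409_at by -0.03 and 1457205_at by 0.07, the last by 0.12 without double-null array 3. The other Trak1 probe sets were split. Higher were 1459666_at by 0.11 (SE 0.08), without overlap, and 1452742_at by 0.03 (SE 0.10). Probe set 1456755_at differed by -0.07 (SE 0.09), and by -0.11 without that array. The scaffold Gphn differed by 0.0057 (SE 0.07). Of the chloride transporters that set the direction of the GABA response, Slc12a2, which loads chloride into immature cells, differed by -0.16 (SE 0.09). This was by its brightest probe set, with -0.19, -0.08 and -0.21 within the pairs. Slc12a2 1448780_at differed by -0.14 (SE 0.14) and 1417623_at by -0.11 (SE 0.10), and both were higher in pair 2, by 0.08 and 0.07. Without double-null array 3 the brightest differed by -0.09, 1448780_at by -0.0049 and 1417623_at by -0.02. Slc12a5, the extruder of mature neurons, differed by 0.06 (SE 0.11) by its brighter probe set, 1451674_at, and by -0.06 without that array. Its other probe set, 1425337_at, differed by 0.19 (SE 0.11), with 0.26, 0.15 and 0.16 within the pairs, and by 0.12 without that array. Without double-null array 3 both chloride transporters were lower by the brighter probe set.

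**Figure D4:**
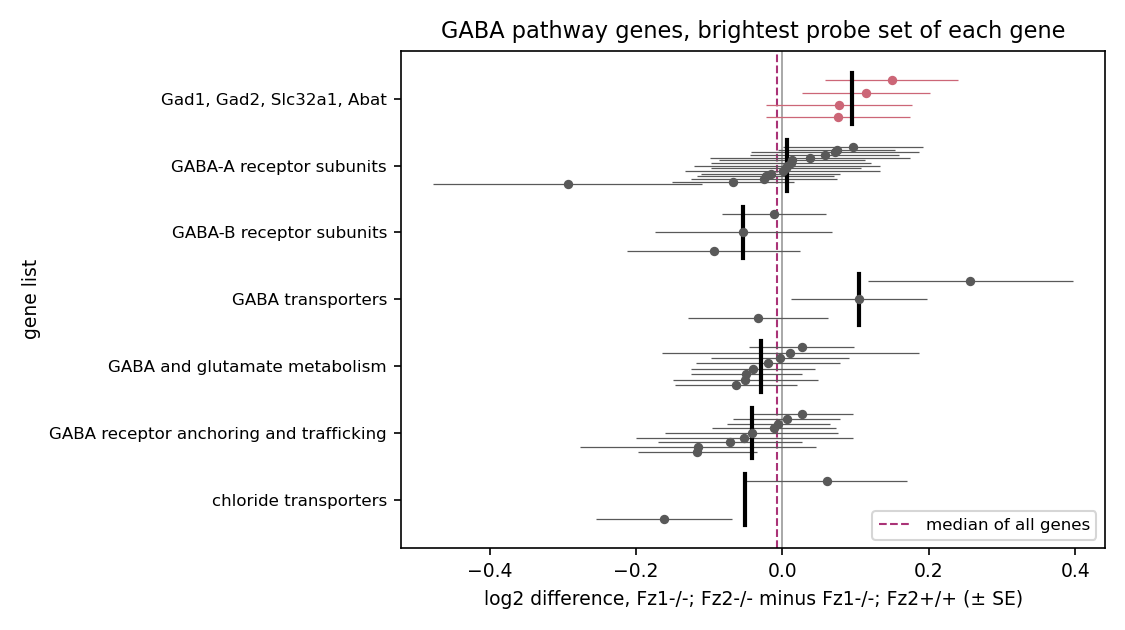
Log2 differences, double-null minus Fz1-null, with moderated SE (x axis), for Gad1, Gad2, Slc32a1 and Abat (red) and the 40 other GABA pathway genes (grey), each by its brightest probe set, in 7 lists (y axis). Black bars are list medians and the dashed line is the median of all genes, -0.01. The transporter Slc6a13 at 0.26 and the subunit Gabra4 at -0.29 are the outermost points.

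The genes whose values over the 6 arrays were most like each of the 4 were found among 10623 genes with an SD of at least 0.1, by Pearson correlation with the brightest probe set. For Gad1 they were Myo16, Nlrp10, Fhl3, Alpk3 and Fgfbp3, each at 0.99, with differences of 0.29 to 0.69 in pair 3. For Gad2 they were 4930558J18Rik (0.99), Pfpl, Clec4a3, Scrn3 and Aoah (0.97), and for Slc32a1 Gm34303 (0.99), Pglyrp1, C030006K11Rik, Pemt and Tnfsf8 (0.97). For Abat they were Zfp28, Midn, Ckb, Slc16a12 and Lrrc4b, at 0.96 to 0.98. None of the 4 genes was among the 5 nearest of another. The 6 arrays share genotype and number, so these correlations are a description.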

How the data were processed

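Total RNA of the 6 palate samples was hybridised to 1 array each. Values were deposited by the authors as log2 probe set values made with RMA, per the submitters' processing notes; its version is not given in the sources used here. RMA sets every array to nearly the same distribution and gives no call of presence. A second deposited table holds the authors' comparison per probe set, as log2 and linear fold changes with a p-value, per the file headers. Its log2 values equalled the group differences with the sign turned (largest difference 4.93e-08), and it served only for this check of direction.

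Of 45101 probe sets, 64 controls were left out. Gene names came from the array's platform table, brought up to date by Entrez identifier through RefSeq (34741 matched): 34945 had 1 symbol, 932 several and 9160 none here. The members and lists were chosen with earlier results of these data known. Some GABA receptor genes are not reported here.

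Groups were compared by limma 3.58.1 (R 4.3.3; lmFit and eBayes) over the 6 arrays with a genotype term alone, two-sided, with Benjamini-Hochberg adjustment over 45037 probe sets and a threshold of 0.05. SE are limma's moderated errors. An exact permutation test of 3 against 3 cannot go below p = 0.1, so none was used. The number of arrays limits the precision. The labels give replicate numbers 1 to 3 in each group; same-numbered arrays deviated together from their group means (correlations of 0.63, 0.44 and 0.63, each over 0.1), so a number was treated as a pair, on the evidence of the data, and a block fit was an alternative. Named were all probe sets of the 4 genes, per pathway list up to 4 genes with the highest mean and up to 3 with the smallest p, up to 3 genes of a marker list by p, and 5 genes of like profile for each of the 4; Slc17a6, Dlx1, Tubb3, Syt4, Aldh5a1, Gphn, Trak2 and Gabrd were named after their values were seen. The fits were tested on simulated data. Alternatives were a filter on dim probe sets, a variance trend, robust moderation, the block, repeated quantile normalisation, median centring, array weights, log2(value + 32), leaving out each array, averaging the probe sets of a gene and a threshold of 0.1.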

Additional observations from a re-analysis of the deposited data

How the results depend on the processing

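Of 165 values of the 10 probe set differences under other settings, 161 kept their direction and their side of the threshold, 3 reversed and 1 passed it. Reversed were Gad2 1421978_at without double-null array 1 (-0.0066) and in the block without pair 1 (-0.022), and Slc32a1 1447574_s_at without double-null array 2 (-0.0033); the cause was not tested. With the replicate block 3 probe sets passed over the whole table in place of 0, and 93, 3 and 3 with pair 1, 2 or 3 left out, the last fits resting on 2 pairs and added after the data were seen. Of the 10 probe sets 1 passed without pair 1 (Gad1 1416561_at, 0.81), and of the 90 pathway probe sets 1 (Gabra4); the block with all pairs changed no call among them. Leaving out each array gave ranges of 0.06 to 0.19 for Gad1, -0.0066 to 0.17 for Gad2, 0.08 to 0.17 for Slc32a1 and 0.0065 to 0.13 for Abat by the brightest probe set, and, for the others, of 0.48 to 1.06 for Gad1 1416561_at, 0.05 to 0.24 for Gad2 1429589_at, 0.01 to 0.09 for Slc32a1 1447573_at, -0.0033 to 0.0997 for Slc32a1 1447574_s_at, 0.03 to 0.34 for Slc32a1 1422756_at and 0.05 to 0.21 for Abat 1422226_at. The mean of the 2 Gad1 probe sets differed by 0.48. Of the brightest probe sets of the 4 genes, that of Abat alone was above the median of mean values, so the filter on dim probe sets gave no value for the other 3.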
